A study of Mus musculus with 9 samples.

Results

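The contractile actin cytoskeleton was followed through 10 genes in cultures of 3T3-L1, a mouse fibroblast line able to turn into fat cells, after treatment with X-1 or X-3. The genes were chosen by name, with earlier results of these data known: the actins Acta1, Acta2 and Actg2, the filament-associated proteins Tagln, Cnn1, Cnn2, Tpm1 and Tpm2, the myosin light chain Myl9 and the adhesion protein Vcl. They had 19 probes of the 40960 used on the array, and 18 of these were above background on every array of at least 1 group. All 10 genes could be tested, among 16736 genes in all. The X-1 group was 3 arrays of preadipocytes given X-1 at 70 µM for 24 h, and the X-3 group was 3 arrays of preadipocytes given X-3 at the same dose for the same time. The control group was 3 arrays of preadipocytes that the labels call untreated, with no vehicle named. All 9 cultures had been kept in 10% fetal bovine serum and then without serum for 48 h before that. The series title names mangiferin derivatives, and X-1 and X-3 are known here only by these code names. The question was how each compound shifted gene expression in these cells, and whether the compounds differed. Every culture was of 1 cell line, and the design text calls the 9 experiments independent.

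In a contractile cell, actin filaments slide against myosin II and are anchored at focal adhesions. Smooth muscle and skeletal muscle actins, calponins, transgelin and tropomyosins dress those filaments, and fibroblasts make several of them when they spread on a stiff surface or meet TGF-beta. Many of these genes carry CArG boxes, the DNA site of serum response factor (SRF), whose coactivators Mrtfa and Mrtfb are held back by unpolymerised actin. In 3T3-L1 and other preadipocytes, loss of this actin programme is a known step on the way to fat cells.

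On each of the 9 arrays, between 57.9% and 67.1% of 43379 gene spots were well above background. Same-numbered replicates shared a slide. Slide 1 was scanned apart from the others, and its spots were read with an earlier version of the Agilent Feature Extraction software. Replicate 1 of X-3 stood apart from its group: on the second principal component, with 10.9% of the variance, it lay at −72.4, against 20.7 and 17.9 for the other X-3 arrays. Control, X-1 and X-3 held the same positions on every slide, so the effects of position and of group cannot be told apart. The array values carry no count of reads, and 3 arrays a group limit the precision of every difference below.

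The promoters of 8 of the 10 genes were in a RefSeq table on build GRCm38.p6, which lists them before the transcript start and a short way past it. Only the 250 bases upstream of the start were searched. A CArG box was taken as CC, then 6 bases that are each A or T, then GG, and an MCAT element, the site of TEAD factors, as CATTCC, both on either strand. An exact CArG box lay in 4 of the 8 promoters (Acta1, Cnn2, Myl9 and Vcl), against 1.47% of all 32851 promoters in the table. With at most 1 mismatch it lay in 6 of the 8, adding Acta2 and Tpm1, against 18.6% of all promoters. MCAT lay in 4 of the 8 (Acta1, Acta2, Tpm1 and Vcl), against 12.6%, and overlapped no CArG match. Cnn1 and Tpm2 had neither in this window. The 6 sequences below are shown because the expression results turn on these genes: the actins Acta2 and Acta1, Myl9 and Cnn2 all fell, Vcl has an exact CArG box and did not pass the test, and Cnn1 moved the other way. They run 5′ to 3′ and end at the base before the transcript start, with CArG matches of at most 1 mismatch in capitals.
Acta2 (chr19:34255374-34255623, minus strand): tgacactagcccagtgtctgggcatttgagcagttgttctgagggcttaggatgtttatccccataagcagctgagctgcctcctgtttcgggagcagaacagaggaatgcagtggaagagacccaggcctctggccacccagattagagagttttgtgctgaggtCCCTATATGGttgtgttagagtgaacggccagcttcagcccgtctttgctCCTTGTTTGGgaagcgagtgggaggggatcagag
Acta1 (chr8:123894776-123895025, minus strand): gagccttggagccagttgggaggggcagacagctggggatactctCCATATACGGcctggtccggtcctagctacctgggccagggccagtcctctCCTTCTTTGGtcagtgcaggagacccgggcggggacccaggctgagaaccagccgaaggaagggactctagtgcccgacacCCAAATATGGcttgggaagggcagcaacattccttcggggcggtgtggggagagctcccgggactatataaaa
Myl9 (chr2:156775214-156775463, plus strand): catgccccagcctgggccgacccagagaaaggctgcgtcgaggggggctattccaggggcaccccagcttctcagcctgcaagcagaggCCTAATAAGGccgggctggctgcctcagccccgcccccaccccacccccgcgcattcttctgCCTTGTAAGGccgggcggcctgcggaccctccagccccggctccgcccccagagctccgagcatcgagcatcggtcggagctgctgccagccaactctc
Cnn2 (chr10:79988350-79988599, plus strand): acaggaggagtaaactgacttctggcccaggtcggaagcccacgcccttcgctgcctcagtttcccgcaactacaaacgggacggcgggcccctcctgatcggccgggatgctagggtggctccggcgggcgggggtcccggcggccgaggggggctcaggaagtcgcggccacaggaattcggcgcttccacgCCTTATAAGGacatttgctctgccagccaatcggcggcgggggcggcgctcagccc
Vcl (chr14:20929148-20929397, plus strand): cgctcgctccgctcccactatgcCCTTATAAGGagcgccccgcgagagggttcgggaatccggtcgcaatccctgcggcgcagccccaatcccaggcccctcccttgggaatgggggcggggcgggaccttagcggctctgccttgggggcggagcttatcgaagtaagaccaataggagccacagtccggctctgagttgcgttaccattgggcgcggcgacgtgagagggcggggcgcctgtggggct
Cnn1 (chr9:22099003-22099252, plus strand): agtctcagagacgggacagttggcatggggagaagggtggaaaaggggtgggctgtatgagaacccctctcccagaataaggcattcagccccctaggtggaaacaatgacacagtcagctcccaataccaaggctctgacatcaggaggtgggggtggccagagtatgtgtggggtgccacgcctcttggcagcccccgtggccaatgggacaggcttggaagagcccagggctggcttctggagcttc

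In Acta2 the CArG matches began 84 and 34 bases before the start, each with 1 mismatch. The exact boxes began 73 bases before the start in Acta1, 56 in Cnn2, 161 in Myl9 and 227 in Vcl. A match is a run of letters and was not tested as a binding site. Of 158 other measured genes with an exact CArG box in this window, 46 (29.1%) were lower and 44 (27.8%) higher with X-1 against control, and 49 (31.0%) were lower and 50 (31.6%) higher with X-3 against control. Those shares lie near the share of all genes called in each direction, given below.

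**Figure D1:**
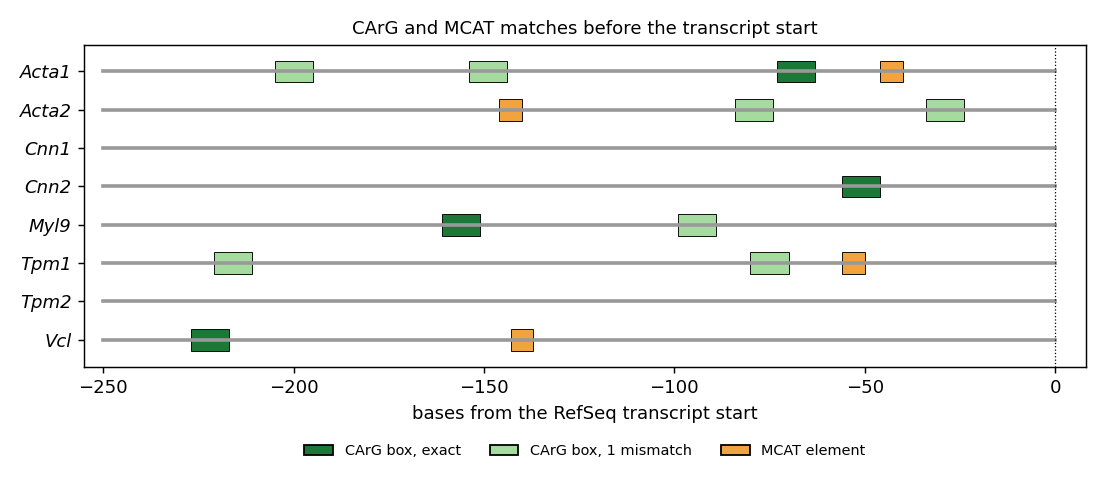
Matches to the CArG box (dark green, exact; light green, 1 mismatch) and the MCAT element (orange) in the 250 bases before the RefSeq transcript start of 8 genes, by distance from the start in bases. Exact CArG boxes are in Acta1, Cnn2, Myl9 and Vcl, and Cnn1 and Tpm2 have no match of either kind.

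Against control, more of the contractile actin genes fell than rose with each compound. With X-1, 6 of 10 fell (Acta1, Acta2, Cnn2, Myl9, Tpm1 and Tpm2), 1 rose (Cnn1) and 3 did not pass the test (Actg2, Tagln and Vcl). With X-3, 5 of 10 fell (Acta1, Acta2, Cnn2, Myl9 and Tpm1), none rose and 5 did not pass. The compounds changed a large part of the transcriptome, so these counts stand against a high background. At an adjusted p under 0.05 in limma over all genes, 28.3% of genes were lower and 28.2% higher with X-1 (56.5% in either direction), and 26.4% were lower and 29.3% higher with X-3 (55.7% in either direction). The median log2 difference of the 10 genes was −1.06 with X-1 and −0.77 with X-3, where the median of all genes was 0.06 in both comparisons. The X-1 and X-3 comparisons share the control arrays. The X-1 arrays lay wholly below the control arrays in 7 of the 10 genes (33.7% of all genes) and wholly above in 1 (34.8%). The X-3 arrays lay wholly below control in 6 (29.2%) and wholly above in 0 (33%). In RNA from whole cultures, fewer cells of a kind and less RNA per cell cannot be told apart.

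Values below are levels on the log2 scale, as intensity less the 75th percentile of the same array, at the brightest probe of the gene that passed the filter, in the order of replicates 1, 2 and 3. Differences are on the same scale with the standard error of the fit, and a fold is the antilog of a difference. Levels of different probes were set against each other only to call a probe bright or dim, in gaps between probes of 1 gene and in sums of markers.

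**Figure D2:**
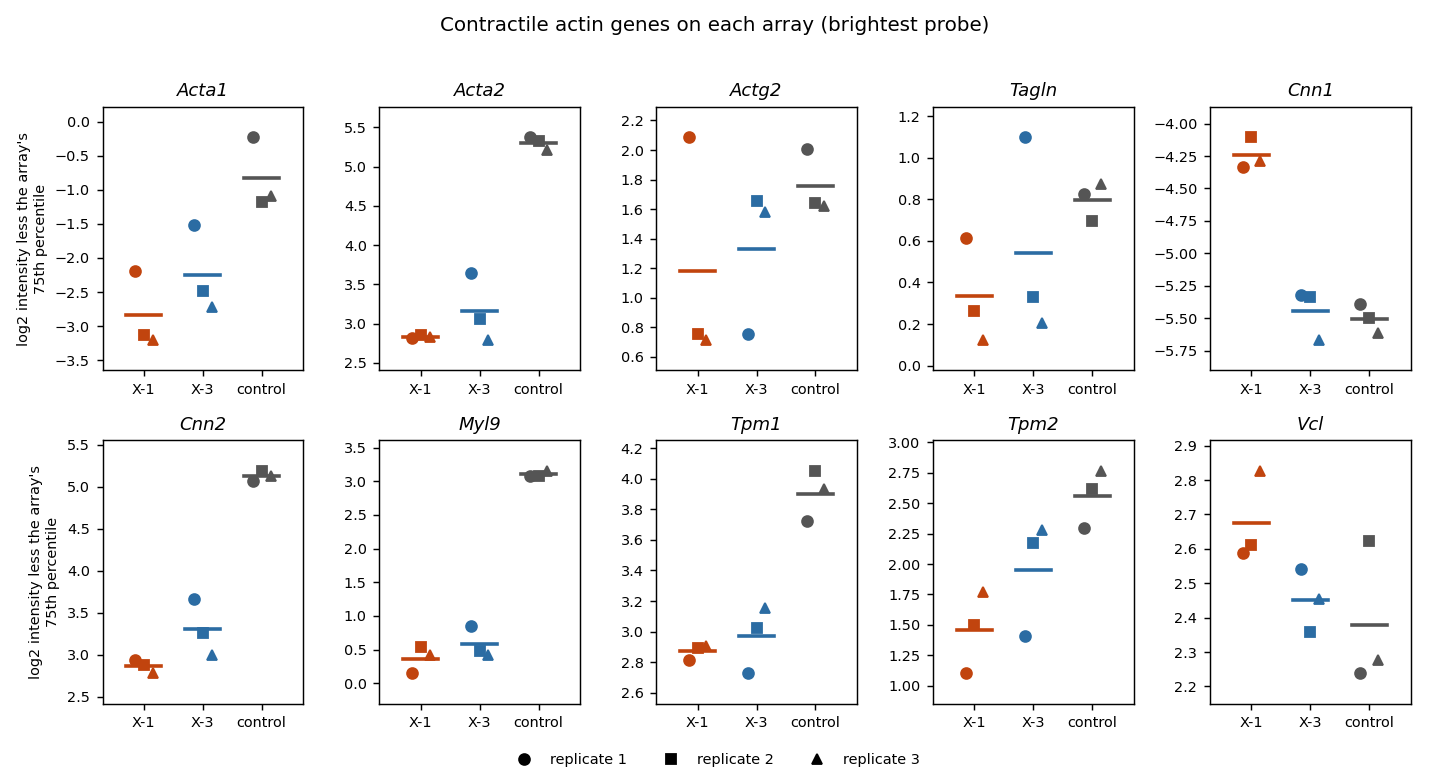
Log2 intensity less the array's 75th percentile for the brightest probe of each gene, by group, with 1 point an array (circle, square and triangle for replicates 1, 2 and 3) and a bar at the group mean; each panel has its own axis. Acta1, Acta2, Cnn2, Myl9, Tpm1 and Tpm2 have every X-1 and X-3 array below every control array, Tpm2 by a narrow margin with X-3. Cnn1 has the 3 X-1 arrays above the other 6.

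Acta2 encodes smooth muscle alpha-actin, the actin isoform by which contractile fibroblasts are usually recognised. Its brightest probe, which begins at base 1241 of the transcript, read 2.82, 2.86 and 2.82 with X-1 and 3.65, 3.06 and 2.79 with X-3, against 5.37, 5.33 and 5.21 in control. Every treated array lay more than 1 log2 unit below every control array. Acta2 fell with X-1 by 2.47 ± 0.20 on the log2 scale (5.54-fold lower, adjusted p = 8.95e-06 in limma) and with X-3 by 2.14 ± 0.20 (4.40-fold lower, adjusted p = 2.57e-05).

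Acta1 encodes skeletal muscle alpha-actin. It read −2.19, −3.13 and −3.20 with X-1 and −1.52, −2.49 and −2.72 with X-3, against −0.23, −1.17 and −1.10 in control. Both treated groups lay wholly below control and overlapped each other, and on slide 1 all 3 arrays were higher than their counterparts on slides 2 and 3. Acta1 fell with X-1 by 2.01 ± 0.40 (4.02-fold lower, adjusted p = 0.0023) and with X-3 by 1.41 ± 0.40 (2.66-fold lower, adjusted p = 0.015). Without control replicate 1 the X-3 call was lost (−1.11, adjusted p = 0.053), as it was without X-3 replicate 3 (−1.17, adjusted p = 0.055).

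Actg2 encodes smooth muscle gamma-actin. It read 2.09, 0.75 and 0.72 with X-1 and 0.75, 1.65 and 1.58 with X-3, against 2.01, 1.64 and 1.62 in control. Replicate 1 parted from its group in opposite directions, high with X-1 and low with X-3, and both treated groups overlapped control. The difference was −0.57 ± 0.38 with X-1 (adjusted p = 0.23) and −0.43 ± 0.38 with X-3 (adjusted p = 0.37). Without X-1 replicate 1 the X-1 difference was −1.02 and passed (adjusted p = 0.016).

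Myl9 encodes a regulatory light chain of smooth muscle and nonmuscle myosin II, whose phosphorylation switches contraction on. It read 0.15, 0.54 and 0.41 with X-1 and 0.85, 0.48 and 0.42 with X-3, against 3.07, 3.08 and 3.16 in control. Among the 10 genes it had the largest fall in both comparisons at the brightest probe, and no treated array came within 2 log2 units of control. Myl9 fell by 2.74 ± 0.15 with X-1 (6.67-fold lower, adjusted p = 1.3e-06) and by 2.52 ± 0.15 with X-3 (5.74-fold lower, adjusted p = 2.62e-06).

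The calponins bind actin and damp its interplay with myosin, Cnn1 in smooth muscle and Cnn2 more widely. Cnn2 read 2.94, 2.88 and 2.78 with X-1 and 3.66, 3.25 and 2.99 with X-3, against 5.07, 5.19 and 5.12 in control. The 3 control arrays were close together, and each treated array was well below them. Cnn2 fell by 2.26 ± 0.17 with X-1 (4.80-fold lower, adjusted p = 5.43e-06) and by 1.83 ± 0.17 with X-3 (3.55-fold lower, adjusted p = 2.39e-05).

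Cnn1 went the other way, and with X-1 alone. It read −4.33, −4.11 and −4.29 with X-1 and −5.32, −5.34 and −5.67 with X-3, against −5.39, −5.50 and −5.62 in control. The X-3 arrays overlapped control, while the X-1 arrays lay above both other groups. Cnn1 rose with X-1 by 1.26 ± 0.14 (2.40-fold higher, adjusted p = 5.79e-05) and differed by 0.06 ± 0.14 with X-3 (adjusted p = 0.73). The probe was dim, though above background on all 9 arrays, and the X-1 call depended on the background correction and the scaling: the difference was 0.42 with normexp correction (adjusted p = 0.12) and 0.47 when slides 2 and 3 were scaled on spike-in probes (adjusted p = 0.16).

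Tagln encodes transgelin (SM22-alpha), an actin-bundling protein and a widely used SRF target. At its brightest probe it read 0.61, 0.26 and 0.12 with X-1 and 1.10, 0.33 and 0.20 with X-3, against 0.82, 0.70 and 0.87 in control. The X-1 arrays lay below control by a narrow margin, and X-3 replicate 1 lay above all of control. The difference was −0.46 ± 0.24 with X-1 (adjusted p = 0.12) and −0.25 ± 0.24 with X-3 (adjusted p = 0.38). Without X-3 replicate 1, which enters the shared spread, Tagln passed in both comparisons, at −0.46 with X-1 (adjusted p = 0.018) and −0.53 with X-3 (adjusted p = 0.017).

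The tropomyosins lie along the actin filament and set which myosins and other proteins can reach it. Tpm1 read 2.82, 2.89 and 2.91 with X-1 and 2.73, 3.02 and 3.16 with X-3, against 3.72, 4.05 and 3.93 in control. No treated array reached the control arrays. Tpm1 fell by 1.03 ± 0.15 with X-1 (2.04-fold lower, adjusted p = 0.00028) and by 0.93 ± 0.15 with X-3 (1.91-fold lower, adjusted p = 0.00057). Tpm2 read 1.10, 1.50 and 1.77 with X-1 and 1.41, 2.17 and 2.28 with X-3, against 2.30, 2.61 and 2.77 in control. On each slide the order was X-1, X-3, control from low to high. Tpm2 fell by 1.10 ± 0.26 with X-1 (2.14-fold lower, adjusted p = 0.006). With X-3 its difference was −0.60 ± 0.26 and did not pass (adjusted p = 0.079), while with the slide as a replicate block the same difference passed (adjusted p = 0.0062).

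Vcl encodes vinculin, which couples actin to talin at focal adhesions. It read 2.59, 2.61 and 2.83 with X-1 and 2.54, 2.36 and 2.46 with X-3, against 2.24, 2.62 and 2.28 in control. Each treated group overlapped control, and the X-3 arrays lay below the X-1 arrays. The difference was 0.30 ± 0.14 with X-1 (adjusted p = 0.10) and 0.07 ± 0.14 with X-3 (adjusted p = 0.68). Without control replicate 2 the X-1 difference was 0.42 and passed (adjusted p = 0.037). On spike-in scaling of slides 2 and 3 the X-3 difference was −0.75 and passed in the other direction (adjusted p = 0.026).

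**Figure D3:**
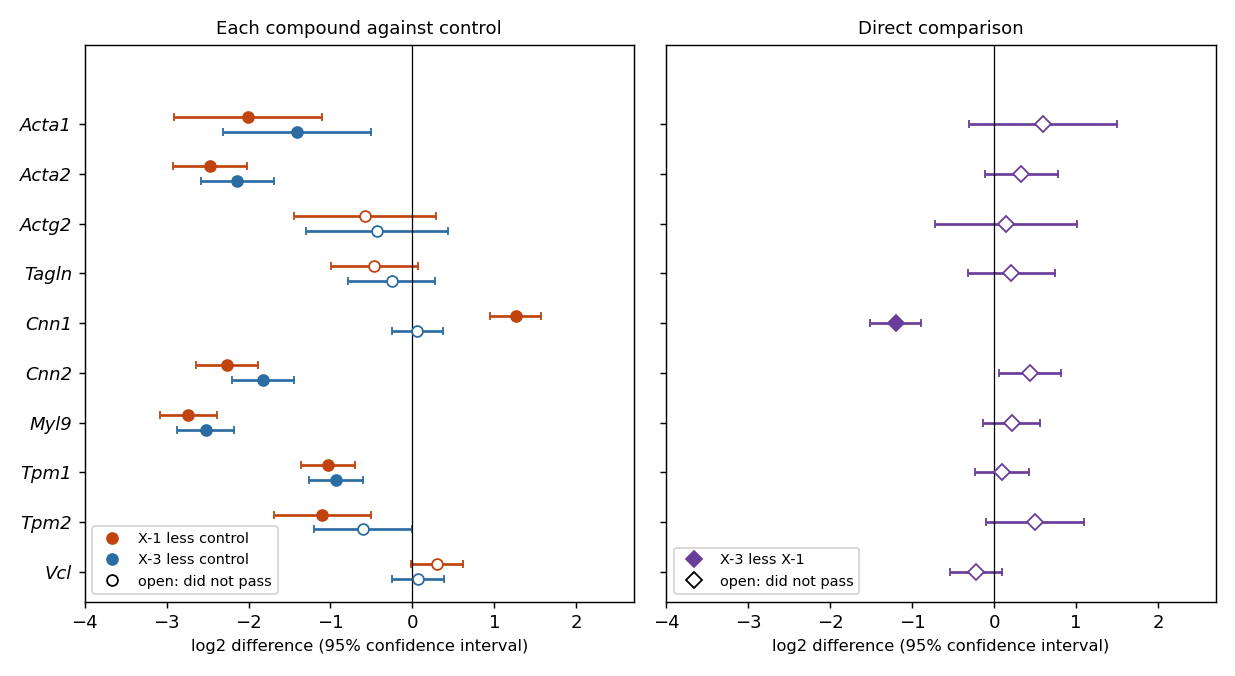
Log2 difference of each gene at its brightest probe, X-1 and X-3 less control (left) and X-3 less X-1 (right), with 95% confidence intervals of the fit that are not adjusted for the number of genes; a filled point has an adjusted p under 0.05 over all genes. Myl9, Acta2 and Cnn2 have the lowest differences from control with both compounds, and only Cnn1 is filled on the right.

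Slide by slide, the large falls were alike. The X-1 less control difference of Myl9 was −2.93, −2.54 and −2.74 on slides 1, 2 and 3, that of Acta2 −2.55, −2.47 and −2.39, and that of Cnn2 −2.13, −2.31 and −2.35. For X-3 less control the same slides gave −2.23, −2.60 and −2.73 for Myl9, −1.72, −2.27 and −2.42 for Acta2 and −1.41, −1.94 and −2.13 for Cnn2. In these 3 genes the X-3 fall was smallest on slide 1, which carries the X-3 array that stands apart. Without that array the X-3 differences were −2.65 for Myl9, −2.38 for Acta2, −2.0 for Cnn2, −1.77 for Acta1 and −0.81 for Tpm1, all passing the test, and −0.33 for Tpm2 (adjusted p = 0.20). The count of X-3 falls was then 6 of 10, with Tagln added, where 5089 of all 16736 genes were lower.

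The direct comparison of X-3 with X-1, at the same dose and time, was 1 pair of compounds. Of the 10 genes, 1 was lower with X-3 (Cnn1), none was higher and 9 did not pass, where 3.67% of all genes were lower and 7.19% higher (10.9% in either direction). Cnn1 was lower with X-3 than with X-1 by 1.20 ± 0.14 (2.30-fold lower, adjusted p = 0.0038), at −0.99, −1.23 and −1.38 on slides 1, 2 and 3. With normexp correction that difference was −0.50 and did not pass (adjusted p = 0.17). Of the genes that fell with both compounds, Acta1 is given below. Among the others, the 95% confidence interval of X-3 less X-1 ran from −0.13 to 0.56 for Myl9 and from −0.12 to 0.78 for Acta2. For Cnn2 it ran from 0.06 to 0.81 and for Tpm1 from −0.23 to 0.42. These intervals do not show that the compounds act alike, and differences up to their ends remain possible. The widest intervals were those of Acta1, from −0.31 to 1.50, and Actg2, from −0.72 to 1.01. Acta1 was higher with X-3 than with X-1 on all 3 slides (0.67, 0.64 and 0.48). With the slide as a replicate block this passed (0.59, adjusted p = 0.027, against 0.38 without the block), although deviations of X-3 and X-1 arrays did not pair by number. Tpm2 passed without X-3 replicate 1, at 0.77 (adjusted p = 0.039).

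Where a gene had several probes, they did not always agree. Over the 18 probes, 11 were lower and 1 higher with X-1, where 26.7% of all 25288 probes were lower and 28.2% higher (54.9% in either direction). With X-3, 10 were lower and 0 higher, where 25.4% of all probes were lower and 28.8% higher (54.2%). In X-3 against X-1, 1 was lower and 0 higher, where 3.35% of all probes were lower and 6.01% higher (9.36%). Acta2 had the widest disagreement among its 4 probes above background. The probe at base 1604 of the same transcript fell further than the one at 1241, by 3.00 ± 0.25 with X-1 (adjusted p = 1.48e-05 over probes) and by 2.87 ± 0.25 with X-3 (adjusted p = 2.33e-05). The probe at base 298, which crosses a splice junction by its coordinates, read 3.72, 3.12 and 3.17 with X-1 and 2.41, 3.74 and 3.75 with X-3, against 3.59, 3.97 and 3.81 in control. It differed by −0.45 ± 0.35 with X-1 (adjusted p = 0.30) and by −0.49 ± 0.35 with X-3 (adjusted p = 0.27).

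The gap between probes within an array shows how unequal these changes were. The probe at 298 less the probe at 1241 was 0.90, 0.26 and 0.34 with X-1 and −1.24, 0.68 and 0.96 with X-3, against −1.78, −1.36 and −1.40 in control. All treated arrays had a higher gap than all control arrays, with a mean gap 2.02 higher with X-1 and 1.65 higher with X-3 (exact permutation p = 0.1 in each, two-sided, the smallest that 3 against 3 arrays can give). The probe at 298 and the Actg2 probe were both high on X-1 replicate 1 and low on X-3 replicate 1 relative to their own groups, while the Acta2 probes at 1241 and 1604 were high on X-3 replicate 1. Coding sequences of the actins are closely alike, and whether probes of 1 actin picked up RNA of another was not tested. The Acta2 probe at base 222 of another cDNA record was dim and lay near the threshold. It differed by −0.99 ± 0.38 with X-1 (adjusted p = 0.052) and by −1.02 ± 0.38 with X-3 (adjusted p = 0.047, a call lost under 9 of 17 alternatives). That probe was above background on 3 of 3 control arrays and on 2 of 3 with each compound, so it was kept only through control. Its fall therefore adds no support, although it is among the 10 probes counted as lower with X-3. One more Acta2 probe, at base 1823 of a further cDNA record, was above background on 0 of the 9 arrays.

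Tagln was called at its dimmer probe, at base 478, where it read −4.89, −5.13 and −4.82 with X-1 and −4.81, −4.66 and −4.52 with X-3, against −4.03, −3.68 and −3.78 in control. All 6 treated arrays were below control there. It fell by 1.11 ± 0.15 with X-1 (adjusted p = 0.00024) and by 0.83 ± 0.15 with X-3 (adjusted p = 0.0015) at that probe, and neither passed with normexp correction. With the mean of both probes Tagln passed with X-1 (−0.79, adjusted p = 0.00087) and with X-3 (−0.54, adjusted p = 0.0074). The 3 Tpm1 probes were lower in both comparisons, with X-1 by 0.61 at base 560 (adjusted p = 0.029) and by 1.60 at base 889 of another cDNA record (adjusted p = 3.37e-05). With X-3 the first of these Tpm1 probes fell by 0.62 (adjusted p = 0.029) and the second fell by 1.45 (adjusted p = 7.07e-05). The calls at base 560 were lost under 7 of 18 alternatives with X-1 and 5 of 18 with X-3. The other Tpm2 probe, at base 674, fell with X-1 by 0.93 ± 0.17 (adjusted p = 0.0016) and differed by −0.43 ± 0.17 with X-3 (adjusted p = 0.063). The other Vcl probe, at base 3164, differed by 0.31 ± 0.18 with X-1 (adjusted p = 0.19) and by −0.12 ± 0.18 with X-3 (adjusted p = 0.61).

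**Figure D4:**
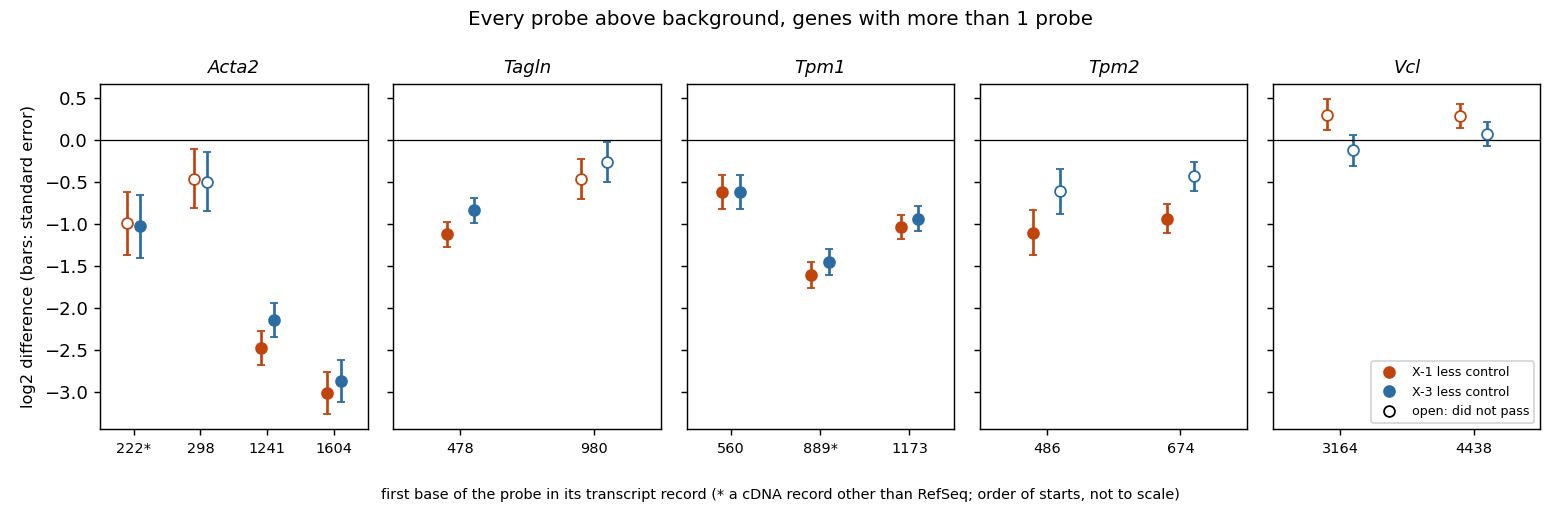
Log2 difference from control at every probe above background, for the 5 genes with more than 1 such probe, in order of the probe's first base in its transcript record; bars are standard errors and a filled point has an adjusted p under 0.05 over all probes. In Acta2 the probes at 1241 and 1604 lie below −2 with both compounds, and the probe at 298 lies near −0.5.

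Among the other genes of the pathway, listed by role with earlier results known, 92 of 96 were measured. With X-1, 30 fell and 22 rose, and with X-3, 30 fell and 17 rose, with median log2 differences of −0.04 and −0.13. Of all genes, 28.3% were lower and 28.2% higher with X-1, and 26.4% were lower and 29.3% higher with X-3. Those shares are the background of every list count below. Of 20 measured genes for SRF, its coactivators and the control of free actin, 6 fell and 7 rose with X-1, and 6 fell and 5 rose with X-3. Srf itself did not pass in either comparison (0.11 ± 0.12 with X-1 and 0.12 ± 0.12 with X-3). Mrtfa, an SRF coactivator, fell by 1.07 ± 0.17 with X-1 (adjusted p = 0.00054) and by 1.09 ± 0.17 with X-3 (adjusted p = 0.00055) at its brightest probe, while a dim second Mrtfa probe differed by −0.58 ± 0.22 with X-1 (adjusted p = 0.049) and by −0.12 ± 0.22 with X-3 (adjusted p = 0.67). Mrtfb, the other coactivator measured, read 0.33, 0.54 and 0.53 with X-1 and 1.31, 0.95 and 1.21 with X-3, against −4.30, −4.16 and −4.30 in control. It rose by 4.72 ± 0.13 with X-1 (adjusted p = 7.4e-08) and by 5.41 ± 0.13 with X-3 (adjusted p = 8.0e-08). Mrtfb was higher with X-3 than with X-1 by 0.69 ± 0.13 (adjusted p = 0.014), a call lost under 4 of 19 alternatives, among them median and spike-in scaling. Its second probe was above background on 0 of 3 control arrays, so it was kept only through treated arrays. For that reason its rise against control adds no support. Between X-3 and X-1 that probe did not pass (0.90 ± 0.37, adjusted p = 0.16).

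Of the 8 measured other actins and paralogs of the 10 genes, 2 fell and 1 rose with each compound. The cytoplasmic actins Actb and Actg1 did not pass at their brightest probes, with differences of 0.25 ± 0.38 and −0.10 ± 0.13 with X-1, and 0.46 ± 0.38 and 0.02 ± 0.13 with X-3. A second Actb probe, at base 1379, rose by 1.00 ± 0.27 with X-1 (adjusted p = 0.012) and by 1.85 ± 0.27 with X-3 (adjusted p = 0.00042). Actc1, cardiac alpha-actin, fell by 1.69 ± 0.36 with X-1 (adjusted p = 0.0031) and by 1.39 ± 0.36 with X-3 (adjusted p = 0.0091). Tagln2, a transgelin of nonmuscle cells, rose by 0.34 ± 0.11 with X-1 (adjusted p = 0.031) and by 0.36 ± 0.11 with X-3 (adjusted p = 0.023), but the calls were lost under 12 of 19 alternatives with X-1 and 8 of 19 with X-3, and turned with spike-in scaling to −0.57 with X-1 and −0.30 with X-3.

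Of 12 measured genes of myosin II and its light chain control, 4 fell and 0 rose with X-1, and 5 fell and 0 rose with X-3. Ppp1r12b, a targeting subunit of myosin phosphatase, had the largest fall in this list, by 1.21 ± 0.22 with X-1 (adjusted p = 0.0015) and by 1.03 ± 0.22 with X-3 (adjusted p = 0.004), and its dimmer probe did not pass with X-1 (−0.66 ± 0.33, adjusted p = 0.13) or X-3 (−0.19 ± 0.33, adjusted p = 0.66). Of 17 measured crosslinkers and caps, 8 fell and 3 rose with X-1, and 7 fell and 2 rose with X-3. Flnc, the muscle filamin, fell by 2.60 ± 0.15 with X-1 (adjusted p = 1.7e-06) and by 2.05 ± 0.15 with X-3 (adjusted p = 7.7e-06) at its brightest probe, while its probe at base 5633 was higher with X-3 by 1.05 ± 0.14 (adjusted p = 0.0003). The largest rise in this list was in Synpo2, a Z-disc and stress fibre protein, with X-1 (1.38 ± 0.29, adjusted p = 0.003), at a dim probe whose difference was 0.36 with normexp correction and did not pass (adjusted p = 0.20). Of 18 measured focal adhesion genes, 7 fell and 3 rose with X-1, and 7 fell and 2 rose with X-3. Tgfb1i1 (Hic-5), a paxillin relative at adhesions, fell at all 3 probes, by 2.17 ± 0.17 with X-1 (adjusted p = 9.1e-06) and by 1.95 ± 0.17 with X-3 (adjusted p = 2.1e-05) at the brightest. The largest rise among adhesion genes was in Fermt2, a kindlin that activates integrins, with X-1 (0.66 ± 0.23, adjusted p = 0.036) and in Pxn, paxillin, with X-3 (0.71 ± 0.11, adjusted p = 0.00044), and with spike-in scaling these turned to −0.23 for Fermt2 and −0.044 for Pxn. The Fermt2 call was lost under 11 of 19 alternatives, and its second probe did not pass (0.41 ± 0.18, adjusted p = 0.081).

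Of 17 measured genes for TGF-beta input and YAP/TAZ output, 3 fell and 8 rose with X-1, and 3 fell and 7 rose with X-3. Tead1, a DNA-binding partner of YAP, fell by 1.38 ± 0.27 with X-1 (adjusted p = 0.0019) and by 1.87 ± 0.27 with X-3 (adjusted p = 0.00036), while its other probe did not pass with X-1 (−0.82 ± 0.46, adjusted p = 0.16) or X-3 (−1.06 ± 0.46, adjusted p = 0.083). Tgfb1 fell with X-1 by 0.70 ± 0.17 (adjusted p = 0.0074), differed by 0.15 ± 0.17 with X-3 (adjusted p = 0.49), and was higher with X-3 than with X-1 by 0.85 ± 0.17 (adjusted p = 0.019), a call lost under 5 of 19 alternatives. Ccn2, a matrix protein that TGF-beta and YAP induce, was higher with X-1 by 0.48 ± 0.17 (adjusted p = 0.037), a call that was lost under 13 of 19 alternatives and turned to −0.43 with spike-in scaling, and differed by −0.13 ± 0.17 with X-3 (adjusted p = 0.53). In the direct comparison, 7 of the 92 pathway genes were higher and 1 lower with X-3 than with X-1, where 7.19% of all genes were higher and 3.67% lower. The lower one, Tpm4, named here after its value was seen, was a tropomyosin (−0.64, adjusted p = 0.037), and its call was lost under 10 of 19 alternatives, the replicate block (adjusted p = 0.055) among them.

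**Figure D5:**
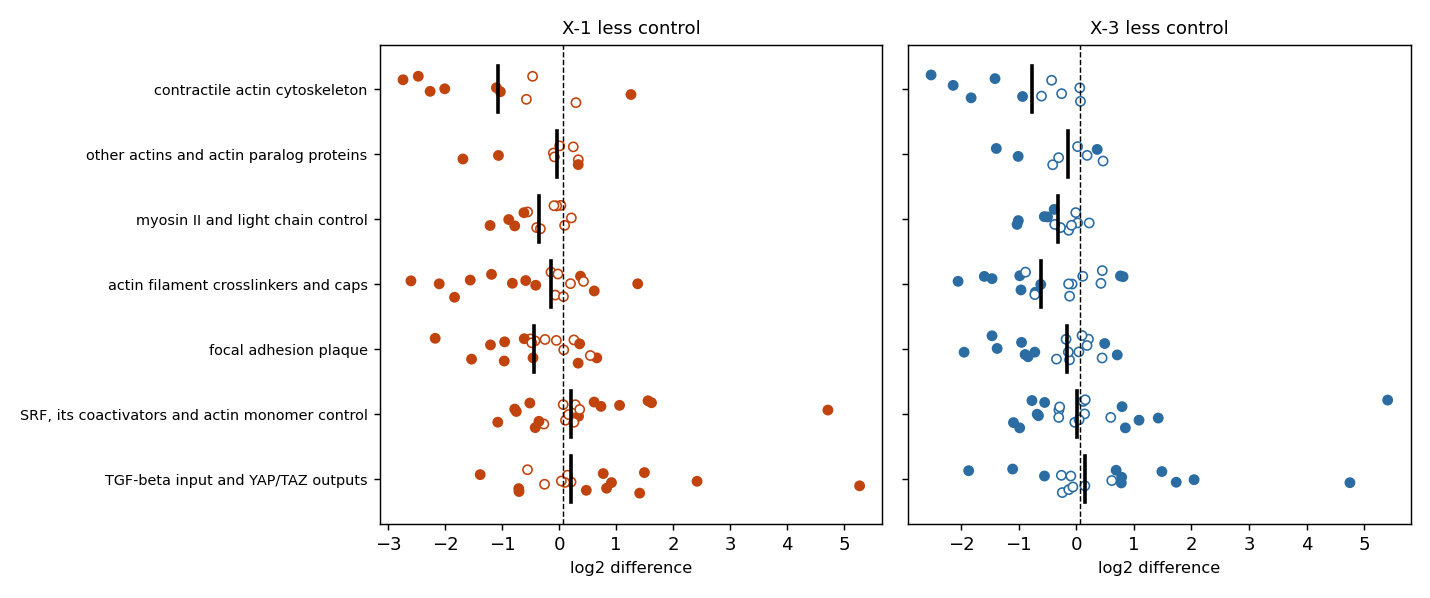
Log2 difference from control of each measured gene, by list, for X-1 (left) and X-3 (right); filled points have an adjusted p under 0.05 over all genes, black bars are list medians and the dashed line is the median of all genes. The contractile actin genes have medians of −1.06 and −0.77, and Mrtfb is the highest point in the SRF list.

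Likeness to Acta2 was measured over the 9 arrays, as the root mean square of the difference between 2 genes in their log2 deviations from their own control means. The closest named genes outside the 10 were Timm17b (0.0871), Immp2l (0.0956), Pacs2 (0.0993), Fam217b (0.117) and Psrc1 (0.119). Among the 10 genes, Cnn2 was closest to Acta2, at 0.231 and rank 55 of 16735 genes, and Myl9 followed at 0.306 and rank 142. Acta1 was next at 0.618 and rank 714, and Cnn1 was farthest at 2.51. For genes close to Acta2 the measure rests on 2 large steps from control, and all genes were read on the same arrays.

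The label of the cells was checked by marker lists. All 10 preadipocyte and fibroblast markers were measured, and their summed linear level relative to the 75th percentile ranged from 1635 to 1988 with X-1 and from 1677 to 1791 with X-3, against 1649 to 1935 in control. The collagens, Dlk1, Vim and S100a4 made up most of that sum, and 4 of the 10 markers fell and 1 rose with each compound. Those that fell, at their brightest probes, were Pdgfrb (by 1.42 with X-1 and by 1.20 with X-3), Pdgfra (by 1.35 and by 1.33), Fbn1 (by 1.03 and by 1.13) and Thy1 (by 0.84 in both). Of 8 adipocyte markers 2 were measured, with sums from 3.67 to 3.91 with X-1 and from 3.52 to 5.32 with X-3, against 5.31 to 6.03 in control. Pparg made up most of that sum, and fell by 0.50 with X-1 (adjusted p = 0.025) and did not pass with X-3 (−0.38, adjusted p = 0.075). Fabp4, at its brightest probe, fell by 2.84 with X-1 (adjusted p = 3.7e-06) and by 2.48 with X-3 (adjusted p = 1.0e-05). Adipoq, Plin1, Cidec, Lep, Retn and Cfd were not above background in any full group. Of 8 smooth muscle markers 6 were measured, with sums from 6.54 to 12.1 with X-1 and from 3.52 to 7.73 with X-3, against 8.84 to 14.0 in control. Cald1 made up most of that sum and did not pass with X-1 (adjusted p = 0.79) or X-3 (adjusted p = 0.10). With X-1, 3 of the 6 fell (Lmod1, Smtn and Synm) and 1 rose (Synpo2), and with X-3, 2 fell (Lmod1 and Synm) and 0 rose. Des and Myocd, the other 2 smooth muscle markers, were not above background in any full group. Myh11 was above background on all 3 control arrays but on only 5 of the 9 arrays, so it was measured only through control. Cardiac markers, of which 4 of 6 were measured and Actc1 is one, summed to 0.765 to 1.38 with X-1 and 0.949 to 1.39 with X-3, against 2.18 to 3.29 in control. Actc1 made up most of that sum. Of these 4, 2 fell and 0 rose with X-1, and 2 fell and 1 rose with X-3 (Nppa, by 0.48, adjusted p = 0.023). Skeletal muscle markers were measured in 4 of 8 genes, macrophage markers in 3 of 6 and endothelial markers in 2 of 5, with sums of at most 1.80 on any array. The part of these markers in the fall of the actin genes was not tested.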

How the data were processed

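Total RNA of 9 cultures was hybridised to one-colour arrays. The deposited files hold spot intensity values, 1 file an array, from which Agilent Feature Extraction had subtracted background and spatial trend, per the file headers. No scaling between arrays had been applied. The scores of the deposited series table were quantile normalized and standardized within each array, as read from their values, and served as an alternative. The genome build behind the probes is not given in the sources used here.

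Spots of a probe were averaged as log2 intensity after outlier spots were left out, and the 75th percentile of the array was subtracted. A probe was kept if every array of 1 or more groups showed it well above background, and the brightest kept probe stood for a gene. Genes (16736) or probes (25288) were tested by lmFit and eBayes (limma 3.58.1, R 4.3.3) with group as the only term over all 9 arrays, with Benjamini-Hochberg adjustment over all of them and a threshold of 0.05. The code was first run on data with known answers. Same-numbered arrays lay on 1 slide, and their deviations from group means correlated at 0.517, 0.318 and 0.271 for X-1 and control and at 0.238, 0.112 and 0.230 for X-3 and control, so the slide pairs them there. For X-3 and X-1 the values were −0.041, −0.182 and 0.156. Alternatives were quantile, median and spike-in scaling (slides 2 and 3 only, since slide 1 carried no spike-in signal), normexp with offset 50, the deposited scores, other filters, the mean of probes, a replicate block and leaving out arrays. The normexp alternative used median spot signals, because mean signals were not in every file. Cultures are called independent by the design text, and p-values measure the spread between these arrays. The 10 genes and all gene lists were chosen with earlier results of these data known. All 10 were named whatever their values; in each pathway list the largest rise and fall among called genes were named, with Srf, Mrtfa, Mrtfb, Actb, Actg1, Tgfb1 and Ccn2 in any case, and the 5 genes most like Acta2. Some genes that this rule names are not reported here.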

Additional observations from a re-analysis of the deposited data

How the results depend on the processing

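With a replicate block, 7 of the 10 genes were called with X-1 and 6 with X-3 against control, and 2 genes and 2 probes between X-3 and X-1. Of all 16736 genes, 10002 were then called with X-1, 9819 with X-3 and 1800 between X-3 and X-1. In the comparisons with control the block changed no call among the 10 genes other than that of Tpm2 with X-3. Acta2, Cnn2, Myl9 and Tpm1 were lower with both compounds, and Acta1 and Tpm2 with X-1, under all 19 alternatives, with the adjusted p under 0.05 in each. Spike-in scaling lowered the median of all genes by 0.89 with X-1 and 0.71 with X-3, and median scaling by 0.22 and 0.23. With spike-in scaling 9 of the 10 genes and 17 probes were called with X-3. Of all 16736 genes, 10072 were called with X-3 on that scaling, 8256 of them lower. Between X-3 and X-1 the calls over all genes were 494 with median scaling, 1045 with normexp and 577 with no filter. Those calls were 1619 with spike-in scaling and 1944 with the mean of probes. With slides 2 and 3 only they were 6461 of 16736, and they were 627 to 3398 when 1 array was left out. Among the 10 genes they were then 0 with normexp, 2 with spike-in scaling or the mean of probes, 4 with slides 2 and 3 only, and 1 to 2 with 1 array left out; among probes they were 0 with normexp, 2 with spike-in scaling, 5 with slides 2 and 3 only, and 1 to 2 with 1 array left out.

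Some differences turned sign, among them the rises of Ccn2, Fermt2, Pxn and Tagln2 that passed the test. With X-3, Cnn1 was −0.24 with quantile normalization, −0.17 with median scaling, −0.65 with spike-in scaling, −0.087 with normexp and −0.057 score units in the deposited scores. Vcl was −0.62 with X-1 and −0.75 with X-3 with spike-in scaling, and with X-3 −0.15 with median scaling, −0.043 with slides 2 and 3 only and −0.023 with the mean of probes; its probe at 3164 was −0.62 with X-1 with spike-in scaling. X-3 less X-1 for Myl9 was −0.026 with slides 2 and 3 only. With 1 array left out, X-3 less X-1 ran from −0.090 to 0.60 for Actg2 and from −0.067 to 0.38 for Tagln, X-1 less control from −0.12 to 0.61 for Actb, and X-3 less control from −0.023 to 0.086 for Actg1 and from −0.022 to 0.26 for Tgfb1. Spike-in scaling gave −0.65 for Actb, −0.43 for Ccn2, −0.23 for Fermt2, −0.54 for Pxn, −0.80 for Srf and −0.57 for Tagln2 with X-1, and −0.72 for Actg1, −0.044 for Pxn, −0.70 for Srf, −0.22 for Synpo2, −0.30 for Tagln2 and −0.75 for Tgfb1 with X-3. Median scaling gave −0.11 for Srf with X-1 and, with X-3, −0.20 for Actg1, −0.11 for Srf and −0.078 for Tgfb1. Actg1 with X-3 was −0.29 with quantile normalization, −0.073 score units in the deposited scores and −0.0068 with slides 2 and 3 only, where Tgfb1 was −0.042. Spike-in scaling moved genes together, by a like amount within a comparison, when set against slides 2 and 3 only. With X-3 the values on slides 2 and 3 only and with spike-in scaling were −0.043 and −0.75 for Vcl. They were −0.042 and −0.75 for Tgfb1 and −0.0068 and −0.72 for Actg1. With X-1 they were −0.90 and −1.79 for Actg2 and −0.59 and −1.48 for Tagln. Beyond this shared shift, the cause of the turns was not tested. Tests in dim probes such as Cnn1 and the lower Tagln probe are limited by their signal over background.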
